A study of Mus musculus with 6 samples.

Results

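RNA sequencing of mouse lip was read for 9 keratin genes: Krt5, Krt14 and Krt15 of basal epithelial cells, Krt6a, Krt6b, Krt16 and Krt17 of wounded or hyperproliferative skin, and Krt4 and Krt13 of mucosal epithelium. The 9 genes were chosen by name for these roles from 26814 gene symbols, and all 9 were among the 15009 genes kept for testing, which needed a CPM (the count scaled to library size) of 1 or more in 3 or more libraries. Top lip from adult female mice was dissected and homogenised whole, so that each library held skin, hair follicles, muscle and whatever mucosa was taken with it. The 3 WT libraries came from wild type mice and the 3 KO libraries from mice with the targeted allele Gtf2ird1 tm1Hrd, referred to as knockout, and both groups shared the C57BL/6J background. Each library was made from 1 mouse.

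Keratins form the intermediate filaments of epithelial cells and polymerise only as pairs of a type II with a type I chain. Basal cells of stratified epithelium carry Krt5 with Krt14, and Krt15 marks a subset of basal cells that includes the bulge of the hair follicle. Cells leaving the basal layer exchange this pair for Krt1 with Krt10 in epidermis or for Krt4 with Krt13 in non-keratinised oral mucosa, while Krt6a, Krt6b, Krt16 and Krt17 are kept low between hair follicles and are induced after wounding or in hyperproliferation.

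The libraries held between 20164081 and 29491767 counts. Gtf2ird1 itself was measured at 78.2, 70.2 and 70.7 CPM in WT and at 166, 162 and 144 CPM in KO. The targeted gene was thus higher under the KO label (log2 fold change 1.11, SE 0.13, adjusted p = 0.0018, edgeR quasi-likelihood test). Counts per gene do not separate reads of the targeted allele. The paper cites earlier work in which the GTF2IRD1 protein regulated its own transcription, and the cause of the rise was not tested here. Genotypes were set in the study from tail biopsies, typed in young mice and again at dissection. Every direction given here is therefore a direction between libraries as labelled. Library WT1 stood apart from the other 5 in mucosal genes, with Krt13 at 2805 CPM where the others ranged from 20.1 to 111 CPM. Defining markers of epidermis (Krt1, Krt10, Trp63, Dsg3, Lor and Ivl) were present in every library, with a summed level of 16653 to 21104 CPM in WT and 27598 to 41155 CPM in KO. The 12 skeletal muscle markers summed to 10244 to 13555 CPM in WT and 4406 to 8570 CPM in KO. In this list 11 of 12 were lower in every KO library than in any WT library, as were 18.1% of all tested genes. Of these 12, 3 fell and 0 rose, where 2.09% of all tested genes fell and 4.38% rose. The 3, named after their values were seen, were Pvalb (log2 fold change -1.17, adjusted p = 0.0343, edgeR), Tnnt3 (-1.01, 0.0397) and Tnni2 (-1.05, 0.0484), with adjusted p up to 0.225 without any library other than KO3. In bulk tissue fewer cells of a type and less RNA per cell cannot be told apart, and the part of tissue makeup in the values of the keratins was not tested.

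All 9 genes lie on the minus strand of GRCm38, the type II genes on chromosome 15 and the type I genes on chromosome 11. Krt6b (chr15:101676023-101680287), Krt6a (chr15:101689910-101694307) and Krt5 (chr15:101707070-101712898) are neighbours, with Krt4 (chr15:101918535-101924735) farther along. Krt13 (chr11:100117327-100121566), Krt15 (chr11:100131758-100135928), Krt14 (chr11:100203162-100207548), Krt16 (chr11:100246091-100248902) and Krt17 (chr11:100256217-100261029) lie in that order. Annotated genes on the opposite strand overlap Krt5, Krt6a and Krt6b, and reads from them cannot be separated here because the strand setting of the counting is not given in the sources used.

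Krt6a and Krt6b are near copies, which limits how far their counts can be told apart. Their coding sequences differed at 37 of 1659 aligned bases, an identity of 97.8%. The stretch of 100 coding bases with the most mismatches, 7, lies in exon 1 of both genes and is shown 5′ to 3′ on the coding strand (GRCm38), because reads the length of this stretch are the ones that had to separate the pair. Capitals mark the bases that differ.
Krt6a, chr15:101693826-101693925, minus strand: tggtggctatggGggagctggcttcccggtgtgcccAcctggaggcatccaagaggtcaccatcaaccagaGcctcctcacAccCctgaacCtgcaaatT
Krt6b, chr15:101679801-101679900, minus strand: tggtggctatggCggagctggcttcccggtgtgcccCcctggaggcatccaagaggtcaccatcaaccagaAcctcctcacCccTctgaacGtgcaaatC
Elsewhere in the same exon 280 bases are identical in both (chr15:101693936-101694215 in Krt6a). Of all windows of 100 bases along the transcript, 56.3% of those of Krt6a and 61.3% of those of Krt6b matched another keratin transcript with at most 2 mismatches. Exact matches were fewer, 34% for Krt6a and 30.6% for Krt6b, and the other read of a pair was not considered. The share with at most 2 mismatches was 17.3% for Krt14, 12.2% for Krt16, 6.91% for Krt5 and 3.79% for Krt17, and 0 for Krt15, Krt4 and Krt13. Values of Krt6a and Krt6b are therefore uncertain as single genes, and their sum is given beside them. Reads dropped because they matched both genes would be missing from the sum as well.

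Across the 9 genes, 1 rose in the libraries labelled KO and 0 fell, where 4.38% of all tested genes rose and 2.09% fell (edgeR quasi-likelihood test, adjusted p under 0.05). Without adjustment 4 of the 9 had a p under 0.05, as had 4439 of the 15009 tested genes. Their median log2 fold change was 0.15, beside -0.02 over all tested genes. By role the median was -0.04 for the 3 basal genes, 1.17 for the 4 genes of wounded skin and -3.98 for the 2 mucosal genes. The exact test used in the study's methods called 3 of 9 higher (Krt6a, Krt6b and Krt16), against 7.76% of all tested genes, and 2 of 9 lower (Krt4 and Krt13), against 7.15%. All 3 KO libraries lay above all 3 WT libraries for 2 genes (background 13.5%) and below them for 1 gene (background 18.1%). Together the 9 genes took 1.998%, 1.40% and 1.32% of all counts in WT and 1.83%, 1.61% and 1.60% in KO.

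**Figure D1:**
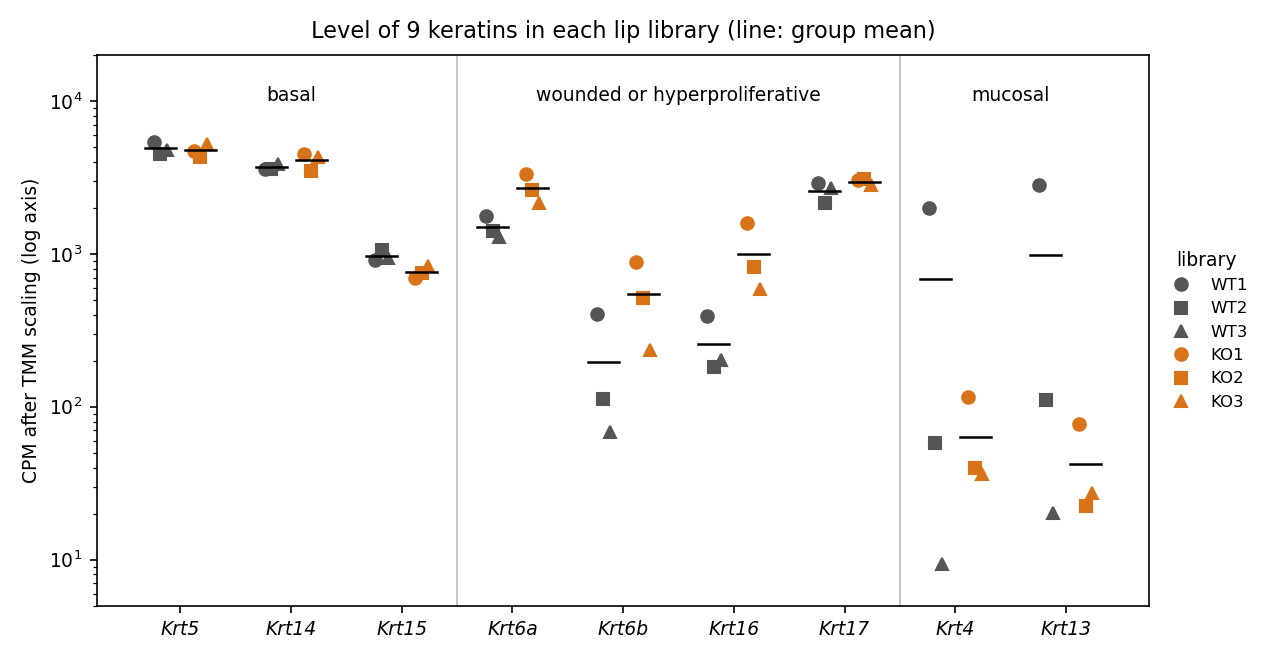
CPM after TMM scaling (log axis) of the 9 keratins in each of 6 libraries, with WT in grey, KO in orange, a marker shape per replicate number and a line at each group's mean. Krt16 and Krt6a were higher in all 3 KO libraries than in any WT library, and WT1 lay far above the other libraries for Krt4 and Krt13.

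Levels can be set between genes only per length, as RPKM, the CPM divided by the gene's exon length in kilobases. In WT the highest were Krt5 at 2225 ± 202 RPKM (SD, n = 3) and Krt14 at 2094 ± 82.7 RPKM, whose libraries overlapped, followed by Krt17 at 1664 ± 256 RPKM. Krt6a at 616 ± 107 RPKM and Krt15 at 549 ± 47.5 RPKM overlapped as well, and Krt16 and Krt6b came last at 166 ± 74.3 and 87.4 ± 82.2 RPKM. Only uniquely mapped reads were counted, so reads that Krt6a and Krt6b share may be missing and their RPKM too low. The mucosal keratins had no stable place in this order, since Krt13 ranged from 11.0 to 1540 RPKM and Krt4 from 4.41 to 932 RPKM among the WT libraries. In the libraries labelled KO, Krt16 at 638 ± 331 RPKM had a higher mean than Krt15 at 429 ± 40.7 RPKM, and their libraries overlapped. Krt4 at 29.9 ± 21.01 and Krt13 at 23.3 ± 16.6 RPKM were the lowest there.

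The basal pair was nearly level between the groups. Krt5, the type II chain of the pair, was measured at 5372, 4503 and 4789 CPM in WT and 4692, 4331 and 5263 CPM in KO. These groups overlapped, and the log2 fold change was -0.04 (SE 0.21, 95% interval -0.52 to 0.44, adjusted p = 0.918, edgeR). Krt14, its type I partner, was at 3609, 3586 and 3849 CPM in WT and 4472, 3488 and 4318 CPM in KO. KO2 lay below all WT libraries and the other two KO libraries above them, and the log2 fold change was 0.15 (SE 0.20, 95% interval -0.31 to 0.61, adjusted p = 0.631, edgeR). Krt15, the basal chain shared with the follicle bulge, was at 907, 1065 and 938 CPM in WT and 692, 747 and 835 CPM in KO. All KO libraries lay below all WT libraries, but the difference did not pass the test over all genes (log2 fold change -0.36, SE 0.15, 95% interval -0.71 to -0.0033, adjusted p = 0.166, edgeR).

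Among the genes of wounded skin, Krt16 rose. Krt16, the type I chain that pairs with keratin 6, was at 393, 182 and 202 CPM in WT and 1582, 824 and 591 CPM in KO. Even the lowest KO library was above the highest WT library, WT1. The mean was 3.86-fold higher (log2 fold change 1.95, SE 0.42, 95% interval 0.97 to 2.92, adjusted p = 0.0365, edgeR). This call was held without WT1 (adjusted p = 0.0429, edgeR) or KO3 (0.00255) and was lost without KO1 (0.0696), WT2 (0.0921), KO2 (0.0971) or WT3 (0.142), with log2 fold changes between 1.51 and 2.37.

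Krt6a, a type II partner of Krt16, was at 1778, 1409 and 1281 CPM in WT and 3316, 2621 and 2152 CPM in KO. The groups did not overlap, and the log2 fold change of 0.86 (SE 0.23, 95% interval 0.33 to 1.38) had an adjusted p of 0.0641 (edgeR), short of the threshold. It passed without KO3 (adjusted p = 0.0107, edgeR). Krt6b was at 406, 112 and 68.3 CPM in WT and 888, 516 and 235 CPM in KO. Here WT1 lay above KO3, and the log2 fold change of 1.48 (SE 0.69, 95% interval -0.10 to 3.07, adjusted p = 0.188, edgeR) passed without KO3 (1.85, adjusted p = 0.0421) and was 2.60 without WT1 (adjusted p = 0.0824). Counted as 1 gene, Krt6a and Krt6b gave a log2 fold change of 0.94 (adjusted p = 0.0789, edgeR). Krt17, which is also made constitutively in the outer root sheath of the hair follicle, was at 2908, 2138 and 2698 CPM in WT and 3041, 3064 and 2806 CPM in KO. Its groups overlapped through WT1 and KO3, and the log2 fold change was 0.20 (SE 0.19, 95% interval -0.25 to 0.65, adjusted p = 0.507, edgeR).

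**Figure D2:**
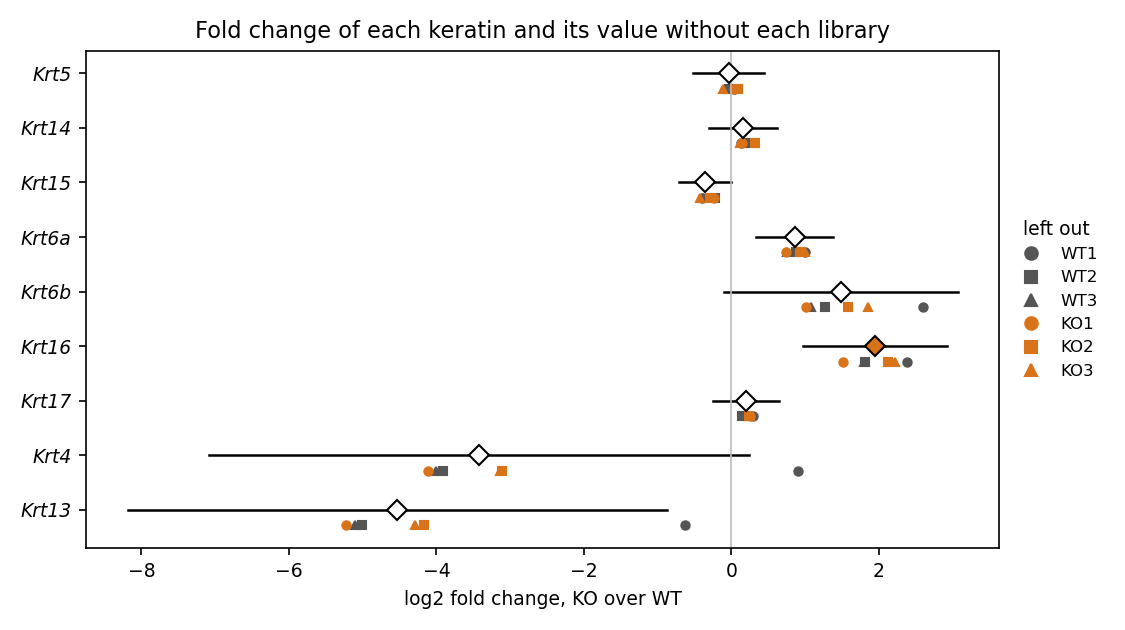
Log2 fold change of KO over WT for each keratin (diamond, filled where adjusted p is under 0.05) with its 95% interval (bar), and below it the value with each library left out in turn (small markers by library). Krt16 lay between 1.51 and 2.37 whichever library was left out, and Krt4 and Krt13 moved to 0.91 and -0.63 without WT1.

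The values of the mucosal pair rested on 1 library. Krt4, the type II chain, was at 1987, 58.3 and 9.40 CPM in WT and 115, 39.8 and 36.1 CPM in KO. Krt13, its type I partner, was at 2805, 111 and 20.1 CPM in WT and 77.3, 22.5 and 27.5 CPM in KO. WT1 was the highest and WT3 the lowest of all 6 libraries for both genes, so that the groups overlapped. The log2 fold changes of -3.43 for Krt4 (SE 1.59, 95% interval -7.09 to 0.24, adjusted p = 0.189, edgeR) and -4.53 for Krt13 (SE 1.59, 95% interval -8.19 to -0.88, adjusted p = 0.110) did not pass the test. Without WT1 they were 0.91 (adjusted p = 0.564, edgeR) and -0.63 (0.674), so that Krt4 turned in direction.

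Other genes of oral epithelium set WT1 apart in the same way, though not all of them. Krt76, a keratin of the hard palate and gingiva, was at 82.8 CPM in WT1 and between 0.197 and 2.81 CPM in the other 5 libraries. Sprr3, a cornified envelope precursor of oesophagus and oral mucosa, was at 104 CPM in WT1 and at most 1.83 CPM elsewhere, and both stayed under the filter and were not tested. Pax9 at 7.84 CPM in WT1 against at most 1.15 CPM, and Pitx1 at 77.0 CPM against at most 37.8 CPM, were named after their values were seen. By contrast Crnn (cornulin) was at 70.5 CPM in WT1, within the 60.6 to 142 CPM of the others, and Mal at 13.1 CPM was within 7.79 to 13.3 CPM. Of the 12 tested genes of oral and oesophageal epithelium 0 were called in either direction, where 4.38% of all tested genes rose and 2.09% fell. Krt76, Sprr3 and Pax9 were not tested, so the median of 0.00 does not cover them. The lowest p was that of Sox2 (log2 fold change -1.08, adjusted p = 0.0954, edgeR). Mal (-0.46, adjusted p = 0.161, edgeR), Tmprss11d (0.87, 0.209) and Ppl (0.43, 0.262) followed.

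**Figure D3:**
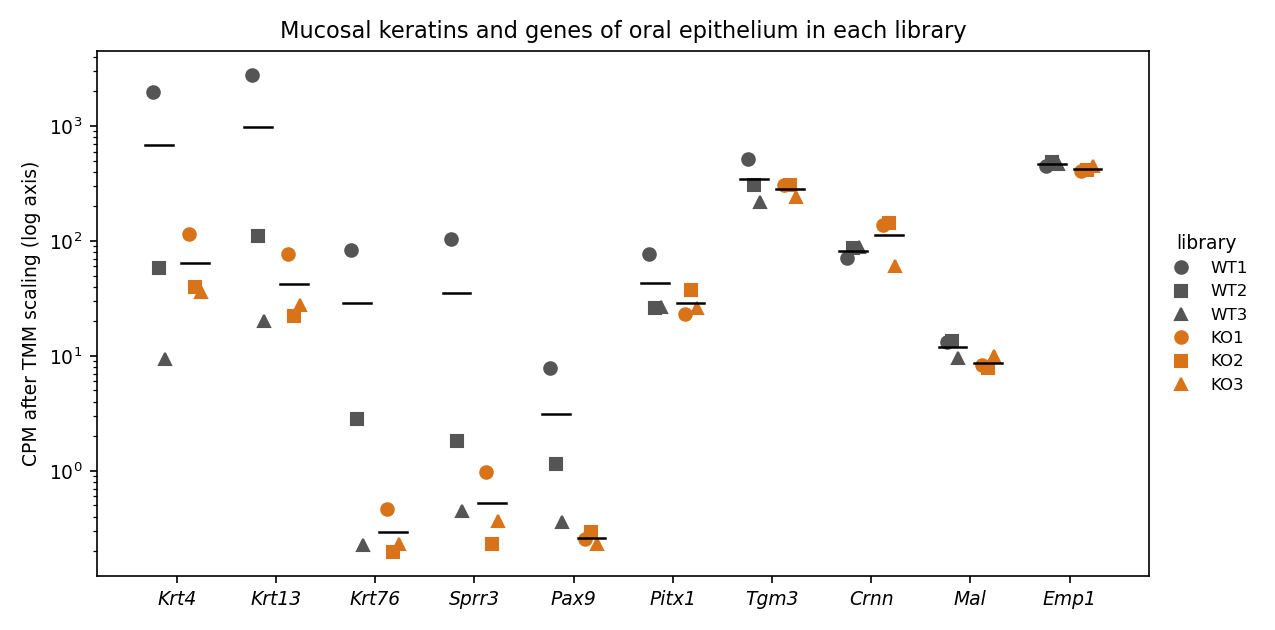
CPM after TMM scaling (log axis) of Krt4, Krt13 and 8 genes of oral epithelium in each of 6 libraries, with a line at each group's mean. WT1 was the highest library for Krt4, Krt13, Krt76, Sprr3, Pax9, Pitx1 and Tgm3, and lay within the range of the others for Mal and Emp1.

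The GTF2IRD1 protein binds the core GGATTA, and this core, the AP-1 site TGANTCA, the TATA box TATAAA and the Sp1 site GGGCGG were searched on both strands. RefSeq windows of the 250 bases before the start were given for 3 of the 9 genes, and 2 are shown, a mucosal and a basal keratin whose RefSeq start lies within 7 bases of the annotated gene start (GRCm38.p6). Capitals mark matches.
Krt13, chr11:100121567-100121816, minus strand: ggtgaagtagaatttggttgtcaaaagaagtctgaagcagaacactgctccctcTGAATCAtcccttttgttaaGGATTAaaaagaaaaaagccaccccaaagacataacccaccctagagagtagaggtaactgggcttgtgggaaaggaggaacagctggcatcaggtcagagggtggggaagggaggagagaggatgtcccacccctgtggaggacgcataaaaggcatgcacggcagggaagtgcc
Krt5, chr15:101712906-101713155, minus strand: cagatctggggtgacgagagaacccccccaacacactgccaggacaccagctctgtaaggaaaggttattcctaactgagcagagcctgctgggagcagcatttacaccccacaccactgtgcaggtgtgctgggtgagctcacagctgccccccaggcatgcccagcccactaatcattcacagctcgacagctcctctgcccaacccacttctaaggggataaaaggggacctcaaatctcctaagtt
The Krt13 window held TGAATCA 196 bases and GGATTA 176 bases before the start, and the Krt5 window held none of these letters. A basal window not shown, that of Krt14, also held the core, as TAATCC 140 bases before its start, and a second Krt13 window held TGACTCA 183 and 34 bases before its start. Those starts lie 1518 and 989 bases inside the annotated genes. Of 32851 windows of the same length, 6.25% held GGATTA, 6.75% TGANTCA, 12.4% TATAAA and 32.7% GGGCGG. These matches are a description of the letters and show no binding.

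Ratios between keratins of the same library do not depend on how libraries are scaled. The summed counts of the 4 genes of wounded skin were 0.5547, 0.420 and 0.444 of those of the 3 basal genes in WT, and 0.896, 0.820 and 0.5554 in KO. WT1 and KO3 were nearly equal, and by counts every KO library was above every WT library. The log2 difference was 0.66, with p = 0.1 in an exact permutation test (two-sided), and no smaller p can come from 3 libraries a group. Per length the separation was lost, since this ratio of RPKM sums was 0.607, 0.454 and 0.496 in WT and 0.935, 0.872 and 0.598 in KO, with WT1 above KO3 (log2 difference 0.61, exact permutation p = 0.2). The mucosal sum was 0.485, 0.0185 and 0.00308 of the basal sum in WT and 0.0196, 0.00727 and 0.00611 in KO, which overlapped (log2 difference -1.66, exact permutation p = 0.7), and without WT1 the difference was 0.34.

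In this way 13 pairs were compared. Krt16 was 0.109, 0.0508 and 0.0525 of Krt14 in WT and 0.354, 0.236 and 0.137 in KO, a log2 difference of 1.77. Against Krt17 it differed by 1.70 and Krt6a against Krt5 by 0.89, again with no overlap. Krt6a was 4.525, 7.73 and 6.34 times Krt16 in WT and 2.096, 3.18 and 3.64 times in KO (log2 difference -1.06). These groups did not overlap either. Krt15 was a smaller part of Krt14 in KO (log2 difference -0.50). Krt5 was 1.488, 1.256 and 1.244 times Krt14 in WT and 1.049, 1.242 and 1.219 times in KO (log2 difference -0.18). Here WT3 and KO2 were nearly equal. The mucosal partners stood in a different ratio in the groups, Krt4 being 0.709, 0.527 and 0.469 of Krt13 in WT and 1.495, 1.77 and 1.31 in KO (log2 difference 1.44), and WT1 was not apart from the other WT libraries in this ratio. Each of these pairs had an exact permutation p of 0.1 and 0.186 after adjustment over the 13 pairs, and a design of this size cannot reach the threshold. Krt17 against Krt14 overlapped between the groups (log2 difference 0.07, exact permutation p = 0.7).

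**Figure D4:**
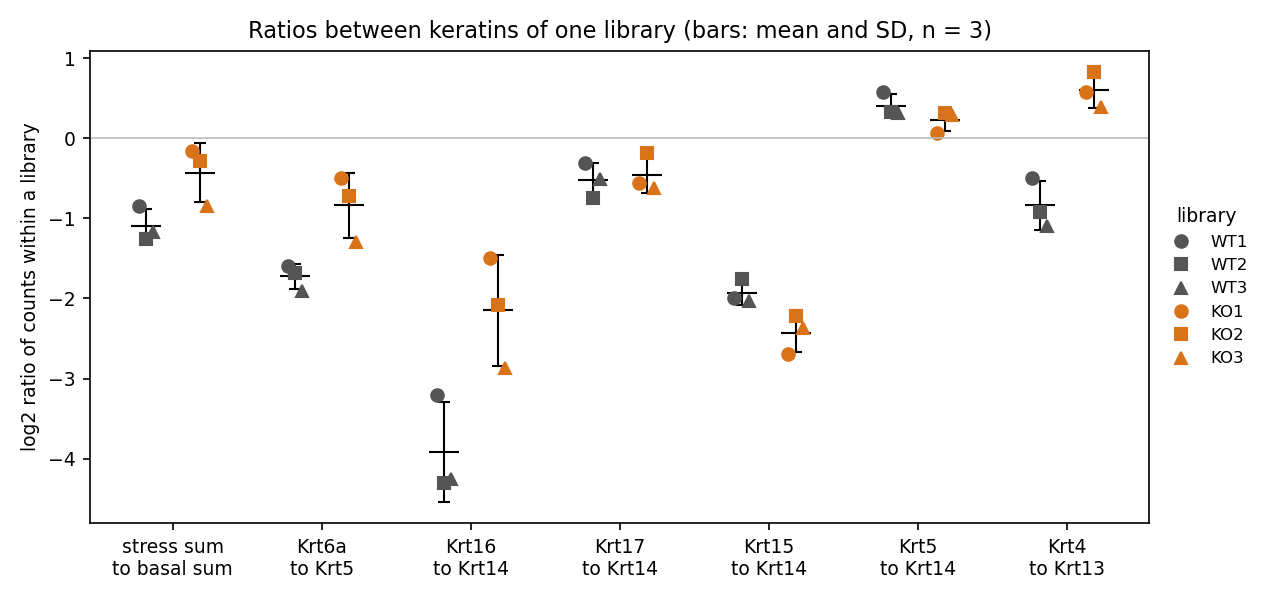
Log2 ratio of counts within each library for 7 pairs or sums of keratins, with WT in grey, KO in orange and black bars for the mean and SD of 3 libraries. The Krt16 to Krt14 and Krt4 to Krt13 ratios were higher in all 3 KO libraries than in any WT library, by 1.77 and 1.44 on average.

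The suprabasal keratins, which follow the basal pair in epidermis, moved apart from each other. Krt2, a keratin of the upper spinous and granular layers, fell from 2546, 3105 and 2312 CPM in WT to 125, 87.2 and 136 CPM in KO (log2 fold change -4.52, SE 0.25, adjusted p = 4.02e-05, edgeR), and kept its call without any 1 library. Krt80 rose (log2 fold change 0.76, adjusted p = 0.039, edgeR), with an adjusted p of 0.00375 without KO3 and up to 0.156 without any of the other 5. The spinous pair Krt1 and Krt10 was higher in every KO library than in any WT library, with log2 fold changes of 1.18 (adjusted p = 0.0584, edgeR) and 0.64 (0.163). Of the 7 suprabasal keratins 1 rose and 1 fell, where 4.38% of all tested genes rose and 2.09% fell.

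Genes that hold basal cells to the basement membrane had a median log2 fold change of 0.0049, with 1 of 11 called higher and 0 lower. Among all tested genes 4.38% were called higher and 2.09% lower. The called gene was Dst, whose epithelial form ties keratin to hemidesmosomes (log2 fold change 1.37, adjusted p = 0.0343, edgeR). Its call was lost without any library other than KO3 (adjusted p up to 0.144). The integrin Itga6 (0.34, adjusted p = 0.127, edgeR), the tetraspanin Cd151 (-0.39, 0.174) and Fermt1, the integrin activator kindlin-1 (0.34, 0.189), came next. Of 9 linkers of intermediate filaments to junctions Dst was again the called gene, and desmoplakin, Dsp, had a log2 fold change of 0.46 (adjusted p = 0.198, edgeR), beside filaggrin, Flg (0.82, 0.132), and plectin, Plec (-0.33, 0.21). Of 7 basal regulators 0 were called in either direction, with Trp63, the master regulator of stratified epithelium, at 340 to 378 CPM in WT and 383 to 387 CPM in KO. The lowest p among them were those of the Notch ligand Dll1 (log2 fold change -0.55, adjusted p = 0.0676, edgeR), Tfap2c (0.26, 0.192), Jag2 (-0.16, 0.447) and the receptor Egfr (0.13, 0.517). The 10 hair follicle stem cell genes, read beside Krt15, had 0 calls, 10 of 10 negative log2 fold changes and a median of -0.60, and 7 of 10 lay lower in every KO library. Over all 15009 tested genes 7801 had negative log2 fold changes, and 18.1% lay lower in every KO library. Tcf7l1 (log2 fold change -0.75, adjusted p = 0.0731, edgeR), Cd34 (-0.71, 0.0735), Lhx2 (-0.72, 0.0755) and Fzd2 (-0.83, 0.0787) were nearest the threshold. The 15 genes of the inner root sheath and hair shaft, keratins and trichohyalin, had 0 calls and a median of -0.54. Of these, 14 of 15 had negative log2 fold changes and 11 of 15 lay lower in every KO library. Krt27 (log2 fold change -0.53, adjusted p = 0.0868, edgeR), Krt35 (-0.62, 0.098), Krt71 (-0.54, 0.103) and Krt33b (-0.77, 0.116) had the lowest p. Of 5 tested neighbours of the keratin 6, 16 and 17 genes Krt75, a companion layer keratin, fell (log2 fold change -0.71, adjusted p = 0.0468, edgeR), with up to 0.222 without any library other than KO3, while Krt42 (-0.78, 0.128) and Krt74 (-0.18, 0.781) were not called.

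Known inducers of the wound keratins include ligands of the EGF receptor, interleukin-1 and factors that act on the Krt16, Krt17 and Krt6 promoters. Of 14 genes that passed the filter through both groups, 3 rose and 0 fell, with a median log2 fold change of 0.53. Beside them, 4.38% of all tested genes rose and 2.09% fell. Epgn, an EGF receptor ligand, was at 2.105, 3.32 and 1.93 CPM in WT and 61.8, 73.7 and 27.3 CPM in KO (log2 fold change 4.47, adjusted p = 0.000627, edgeR). Nfe2l2, the antioxidant regulator NRF2, rose by 1.03 (adjusted p = 0.00307) and Fosl1, an AP-1 subunit, by 1.38 (0.00895, and 0.0531 without WT3). Il1b, the secreted interleukin-1 beta, was at 0.653, 0.893 and 0.630 CPM in WT and 3.58, 1.94 and 3.48 CPM in KO. It passed the filter through the KO libraries alone, is left out of these counts, and could not be fitted without any 1 of them.

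Of 16 other alarm genes of stressed epidermis 4 rose and 0 fell, against 4.38% and 2.09% of all tested genes. Their median log2 fold change was 0.86. The cornified envelope precursors Sprr2h (log2 fold change 4.38, adjusted p = 0.00451, edgeR) and Sprr1b (1.93, 0.0269), the cytokine Il1f9 (1.76, 0.0147) and the hyaluronan receptor Cd44 (0.77, 0.0129) were the called genes. Sprr2h kept its call without any 1 library, and the highest adjusted p was 0.101 for Sprr1b (lost without WT2, WT3, KO1 or KO2), 0.0833 for Il1f9 (without WT1, WT2, WT3 or KO2) and 0.0833 for Cd44 (without WT1 or WT3). S100a8 and S100a9, made by stressed keratinocytes and by neutrophils, stood at 64.8 and 67.1 CPM in KO1 and at most 15.2 CPM in the other libraries, and KO1 also had the highest Krt16. The neutrophil markers Ngp, Camp, Ltf and Mpo were at most 0.197 CPM in every library. Which cells made S100a8 and S100a9 in KO1 was not tested.

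**Figure D5:**
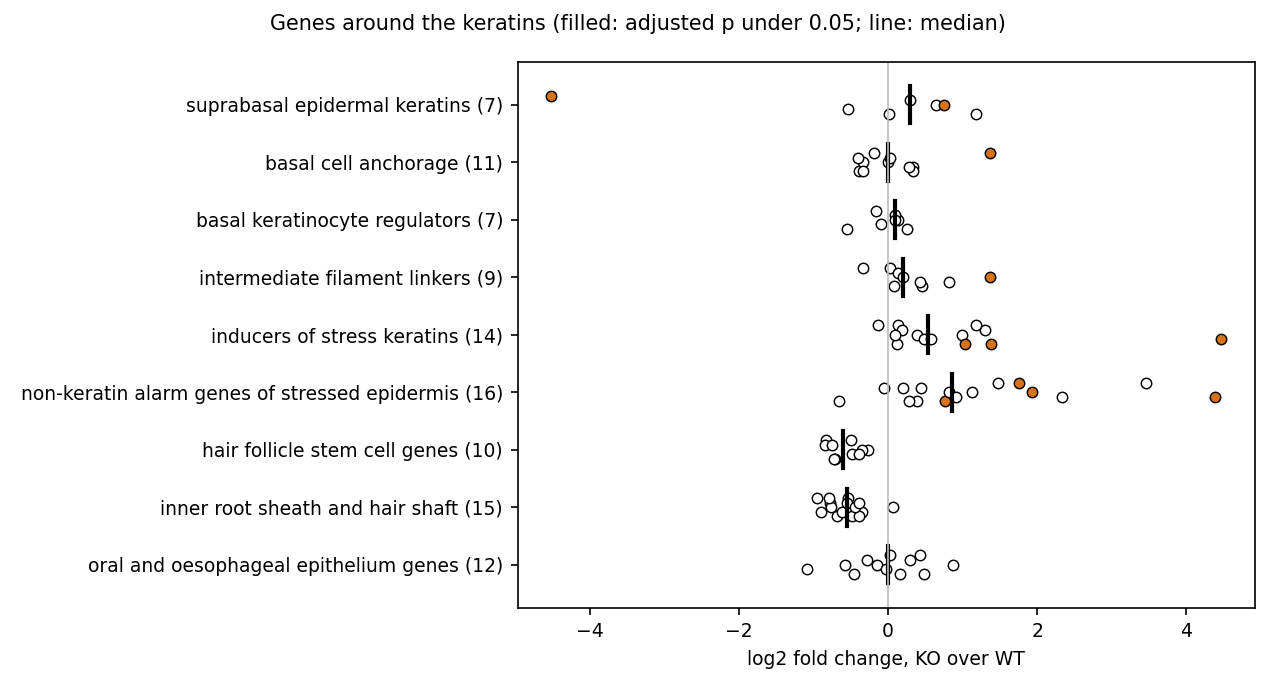
Log2 fold change of KO over WT for the tested genes of 9 lists around the keratins (points, Il1b left out, filled where adjusted p is under 0.05), with a line at each list's median and the number of tested genes in brackets. The inducers of wound keratins and the alarm genes had medians of 0.53 and 0.86. All 10 hair follicle stem cell genes lay below 0, as did 7801 of all 15009 tested genes. Of the 15 inner root sheath and hair shaft genes 14 lay below 0.

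Across the 6 libraries Krt6a and Krt16 varied together (Pearson r 0.991 on log2 CPM, 6 libraries that share the 2 groups), as did Krt4 and Krt13 (0.954), while Krt15 ran opposite to Krt16 (-0.966). A high r leaves room for a changed ratio, as Krt6a to Krt16 and Krt4 to Krt13 did not overlap between the groups. Among 10384 genes, the 5 most like the mean of the wound keratins were Lce3f (r 0.997), Klk13 (0.996), Lce3e (0.995), Pla2g4d (0.991) and Sprr2d (0.991). Lce3f, a late cornified envelope gene, was at 50.05, 14.2 and 9.85 CPM in WT and 175, 99.9 and 46.0 CPM in KO, so that WT1 lay above KO3 as for Krt6b. Most like the mucosal mean were Mb21d2 (r 0.967), Chi3l4 (0.965), 1600012H06Rik (0.963), Mcur1 (0.958) and Tgm3 (0.958), with Chi3l4, a chitinase-like gene, at 147 CPM in WT1 and at most 1.53 CPM elsewhere. Dis3l2 (0.990), Nfs1 (0.984), Oma1 (0.983), Papss1 (0.983) and Slc25a26 (0.977) were most like the basal mean, a mean that itself varied little. These correlations were chosen as the highest of many and are given as a description.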

How the data were processed

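Whole-lip mRNA from 3 WT and 3 KO mice was sequenced as paired reads of 100 bases. The deposited values were raw counts per gene symbol, made by the authors with TopHat2 2.0.8, Bowtie2 2.1.0 and HTSeq on GRCm38 from uniquely mapped reads; the strand setting and counting mode are not given in the sources used here. Depth was 20164081 to 29491767 counts per library. Here counts of genes with a CPM of 1 or more in 3 or more libraries were scaled by TMM and tested with the quasi-likelihood F test of edgeR 4.0.16 in R 4.3.3 (KO against WT, no covariate, Benjamini-Hochberg over 15009 genes, threshold 0.05), after a test on simulated data. The study's exact test, DESeq2 1.42.0, limma-voom (limma 3.58.1), other scalings, filters, a block and each library left out were alternatives. Ratios had 0.5 counts added and were tested by exact permutation. RPKM used the exon union of GENCODE release 21 of mouse. Members and gene lists were chosen with earlier results of these data known. Named were all members, the targeted gene, the 5 genes most like each role and markers of cell types. Of each keratin-related list the called genes were named, or its lowest p-values up to 4. Genes named after their values were seen are stated as such. The paper's methods give 3 WT and 3 KO mice, so p-values measure spread between 3 animals a group. Some genes of the lists are not reported here and were left out of their lists' counts and medians.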

Additional observations from a re-analysis of the deposited data

How the results depend on the processing

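The number of the 9 keratins called higher, 1 in the fit reported, was 3 with the exact test, 2 with DESeq2, 2 with limma-voom, 2 without a filter, 3 with the replicate block, 2 at an adjusted p under 0.1 and 0 to 3 with a library left out. It was 0 without WT2, WT3, KO1 or KO2 and 3 without KO3. The number called lower, 0, became 2 with the exact test, and DESeq2 gave no adjusted p for Krt4 and Krt13. Krt16 was called in 11 of 11 alternatives that kept every library, with an adjusted p of 5.77e-06 to 0.0418. Genes called higher numbered 657, and 1165 with the exact test, 1504 with DESeq2, 1248 at an adjusted p under 0.1, 182 with both first libraries left out (chosen after seeing the data) and 208 to 2496 with a library left out. Genes called lower numbered 314, and 1073 with the exact test, 905 with DESeq2, 207 with DESeq2 size factors, 204 without a filter, 204 at a minimum of 10 counts, 1281 at an adjusted p under 0.1, 10 with both first libraries left out and 18 to 2395 with a library left out, the highest without KO3. The cause was not tested. Krt5 changed sign with DESeq2 (0.0042), without a filter (0.0119), with both first libraries left out (0.10) and with a library left out (-0.11 to 0.0831), Krt4 with both first libraries left out (0.21) and with a library left out (-4.11 to 0.91), Jag2 with both first libraries left out (0.0177), and Krt74 with a library left out (-0.40 to 0.29). None of these was called. The stress to basal ratio was 0.52 to 0.87 and the mucosal to basal ratio -3.31 to 0.34 (log2) with a library left out. Per length the stress to basal difference was 0.61 (exact permutation p = 0.2, against 0.1 by counts), with WT1 above KO3. Same-numbered WT and KO libraries deviated together with r -0.19, 0.29 and 0.31, and WT1 and WT2 correlated best with KO3 and KO1. Deviations from a mean of 3 libraries are tied to each other, so these values cannot decide whether the numbers pair the libraries. The replicate block gave 580 genes higher and 217 lower, and 3 keratins higher (Krt6a, Krt6b and Krt16). The count of called genes in the lists moved by over 1.5 times in 118 of its values and stayed within that in 756.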

Other observations

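Of the keratins of simple epithelium, Krt7, found in gland ducts, was at 4.46, 4.72 and 4.59 CPM in WT and 13.7, 11.8 and 11.4 CPM in KO (log2 fold change 1.42, adjusted p = 0.00191, edgeR), while Krt8 (-0.68, 0.164), Krt19 (-0.52, 0.349) and Krt18 (-0.53, 0.391) were not called. Aqp5, a water channel of glands, rose from 12.0, 8.37 and 11.4 CPM to 85.8, 67.6 and 52.6 CPM (log2 fold change 2.69, adjusted p = 0.000349, edgeR), and the gland mucins Muc5b and Muc19 were at most 1.03 CPM in every library. Aqp5, Awat1 and Fabp4 were named after their values were seen.

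Among lists of other cell types, 1 of 7 sebocyte genes fell (Awat1, log2 fold change -1.09, adjusted p = 0.00409, edgeR, and 0.0565 without KO2) and 1 of 6 adipocyte genes fell (Fabp4, -0.65, 0.0303, with up to 0.153 without any library other than KO3). Of all tested genes 2.09% fell and 4.38% rose. The tested dermal fibroblast (8), macrophage (7), endothelial (6), T cell (4), melanocyte (4) and neutrophil (2) genes had 0 calls, with medians of -0.26, -0.22, -0.22, 0.54, -0.32 and 1.90. The 2 neutrophil genes were S100a8 and S100a9, also counted among the alarm genes. They stood at 64.8 and 67.1 CPM in KO1, while KO2 and KO3 lay below WT1 for both. Ngp, Camp, Ltf and Mpo were not tested.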
